A study of Mus musculus with 6 samples.

Results

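The genes described here encode the transporters that carry drugs, bile constituents, sterols and other small molecules into and out of liver cells. They were taken from the deposited table by symbol, as genes of the Slco, Slc22a and Slc47a solute carrier families and of the Abca, Abcb, Abcc and Abcg families of ATP-binding cassette (ABC) transporters. The selection left out 1 symbol with these prefixes. This gave 55 genes of the 14669 rows in the table, 23 solute carriers and 32 ABC genes. The libraries came from livers of male, wild-type C57BL/6J mice aged 8 weeks. Each was given 25 µg of plasmid through a hydrodynamic injection, where the pressure of a large bolus (2.5 ml of saline) pushes DNA into liver cells. The plasmid was plko-scramble, a control hairpin, or shBicd2, a hairpin against the dynein adaptor gene Bicd2. All of the mice in both groups were given concanavalin A (ConA), a lectin that sets off T cell driven hepatitis, at 15 mg/kg intravenously on day 3, and livers were taken 6 h later. There were 3 libraries per group, Sc3, Sc4 and Sc5 for scramble and sh1, sh3 and sh6 for shBicd2, and no liver without ConA was analysed here.

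Hepatocytes take up organic anions and cations from sinusoidal blood through solute carriers of the SLCO and SLC22 families, which move their substrates without spending ATP directly. ABC transporters use ATP to push substrates out, some across the canalicular membrane into bile and others back across the sinusoidal membrane into blood. Many of these genes are under the control of nuclear receptors such as PXR, CAR, FXR and LXR, and inflammation is known to lower several of them in liver.

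Facts of the whole series bear on every value below. Depth recovered from steps in the values was 16.03 to 18.93 M reads per library, and the depths of the 2 groups overlapped. Levels are FPKM, fragments per kilobase of transcript scaled to the library total. Bicd2 itself was at 3.56 ± 0.518 FPKM with scramble, against 3.05 ± 0.526 FPKM with shBicd2 (SD, n = 3), so the groups overlapped and a lower level was not detectable in whole liver (limma adjusted p = 0.624). Library sh1 stood apart from the other 5, at 54.9 on the first principal component (58.9% of the variance), with the others between -22.2 and 10.7. Hepatocyte markers were abundant in every library, with a summed level of 21129 to 27075 FPKM in scramble and 27565 to 34646 FPKM in shBicd2 over 6 of 6 genes. Alb made up most of each sum, at 15373 to 21155 FPKM in scramble and 18944 to 26213 FPKM in shBicd2. The groups of Alb overlapped, while those of the sum did not. Fold changes of the 6 genes were positive for 4 and negative for 2, and 0 had a limma adjusted p below 0.05. For Apoa1, Ttr and Serpina1a every shBicd2 library lay above every scramble library. Apoa1 was at 2898 to 3206 FPKM in scramble and 4079 to 4883 FPKM in shBicd2. The genes with negative fold changes, Cps1 and Hnf4a, overlapped between groups. The part of hepatocyte marker level in the transporter values was not tested. The summed level of 4 cholangiocyte markers was 135 FPKM in sh1, of which Spp1 made up 132. In the other 5 libraries the sum was 30.0 to 67.2 FPKM. Sox9 of that list went the other way, with its lowest value in sh1, 3.11 FPKM against 5.72 to 12.6 FPKM elsewhere. Krt7 and Epcam stayed below 1 FPKM throughout. Each of the 4 T cell and 2 B cell markers in the table was below 1 FPKM. The labels do not say that libraries came from separate animals, so p-values measure the spread between these libraries. In whole liver, fewer cells of a type and less RNA per cell cannot be told apart.

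Promoter sequences are shown for a gene pair that shares its upstream region, Abcg5 and Abcg8, and for a pair of neighbouring carriers, Slco1a1 and Slco1a4, whose fold changes had opposite signs without passing the test. From 1 of the RefSeq starts of Abcg8, Abcg5 and Abcg8 lie head to head on chromosome 17 with starts 110 bases apart. These windows of the 2 genes share 209 of 300 bases, and that of Abcg8 is printed. Another RefSeq window of Abcg8, chr17:84676052-84676351, lies within the span of Abcg5 and is not printed. Slco1a1 and Slco1a4 lie 51083 bases apart on the minus strand of chromosome 6 and encode similar uptake carriers. Each window (RefSeq, GRCm38.p6) runs 5′ to 3′ on the gene's strand from 250 bases before the start to 50 bases after it, and capitals mark motif matches on either strand.
Abcg8 promoter, chr17:84682871-84683170, plus strand: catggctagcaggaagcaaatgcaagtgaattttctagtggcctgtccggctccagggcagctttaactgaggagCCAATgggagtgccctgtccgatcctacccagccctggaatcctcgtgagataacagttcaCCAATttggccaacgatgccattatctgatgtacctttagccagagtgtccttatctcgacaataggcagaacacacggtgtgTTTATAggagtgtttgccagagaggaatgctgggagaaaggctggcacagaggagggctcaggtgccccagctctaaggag
Slco1a1 promoter, chr6:141946913-141947212, minus strand: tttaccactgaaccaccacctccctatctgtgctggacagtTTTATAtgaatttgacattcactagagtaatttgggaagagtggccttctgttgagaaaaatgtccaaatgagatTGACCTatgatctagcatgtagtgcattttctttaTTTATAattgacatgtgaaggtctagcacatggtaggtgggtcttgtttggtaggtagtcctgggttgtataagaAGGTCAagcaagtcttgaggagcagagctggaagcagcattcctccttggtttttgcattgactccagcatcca
Slco1a4 promoter, chr6:141856171-141856470, minus strand: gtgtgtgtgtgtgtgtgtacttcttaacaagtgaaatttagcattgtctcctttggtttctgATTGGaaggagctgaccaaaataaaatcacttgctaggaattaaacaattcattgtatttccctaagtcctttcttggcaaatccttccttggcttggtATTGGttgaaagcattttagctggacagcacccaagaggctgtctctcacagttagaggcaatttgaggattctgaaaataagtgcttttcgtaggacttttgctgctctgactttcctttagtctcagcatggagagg

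In these windows the search was for the TATA box (TATAAA), the box bound by NF-Y (CCAAT), the GC box bound by SP1 (GGGCGG), part of the HNF1 site (GTTAAT), the element that nuclear receptors bind (AGGTCA), the core of the antioxidant response element (TGACNNNGC) and the site of AP-1 factors (TGANTCA), on both strands. The last 2 can overlap each other. The printed Abcg8 window held the NF-Y box at positions 76 and 137, counted from 1 at its first base. It also held a TATA box on the opposite strand at position 220. In the Slco1a1 window the TATA box was found on the opposite strand at positions 42 and 152, and the nuclear receptor element at 227 and, on the opposite strand, at 117. The Slco1a4 window held the NF-Y box on the opposite strand at positions 63 and 162 and no other motif of the 7. Of 32851 windows in the RefSeq table, 13.6% held the TATA box, 37.4% the NF-Y box, 35.7% the GC box, 7.10% the HNF1 motif, 16.3% the nuclear receptor element, 12.4% the antioxidant response core and 7.81% the AP-1 site. Of the transporter genes, 42 had 50 windows in that table, of which, in the same order, 20%, 24%, 48%, 2%, 20%, 18% and 2% held the motif. These matches describe letters and not binding.

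Between the plasmids no transporter gene passed the test. Of the 55 genes, 37 averaged 1 FPKM or more across the 6 libraries and entered the fit, 15 solute carriers and 22 ABC genes, and 18 were below it. The test was limma on log2(FPKM + 1), with p adjusted by Benjamini-Hochberg over all genes tested. An adjusted p below 0.05 was reached by 0 of the 37, as by 0% of the 10152 genes tested, and adjusted p-values of the members ran from 0.220 to 0.986. At an unadjusted p below 0.05 there were 3 members higher in shBicd2 and 0 lower, against 2.97% and 12.7% of all genes tested. The 3 were the solute carriers Slc22a7, Slco1a4 and Slc47a1. Voom on recovered reads, the other test, called 0 members, with 2 higher and 1 lower at an unadjusted p below 0.05. For voom the share over all genes was not taken.

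The log2 fold changes of the 37 genes, on the log2(FPKM + 1) scale with shBicd2 minus scramble, ran from -0.79 to 0.95. Solute carriers had a median of -0.04, with 7 positive and 8 negative, and ABC genes a median of -0.03, with 9 positive and 13 negative. The median over all genes tested was -0.06, with 58.6% negative. The scaling between libraries moved these medians together with that of all genes. With median-of-ratios size factors both family medians were 0.03 and that of all genes 0.01. With quantile normalization they were 0.07 for solute carriers, 0.06 for ABC genes and 0.03 for all genes, and on the TPM scale -0.14, -0.12 and -0.16.

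**Figure D1:**
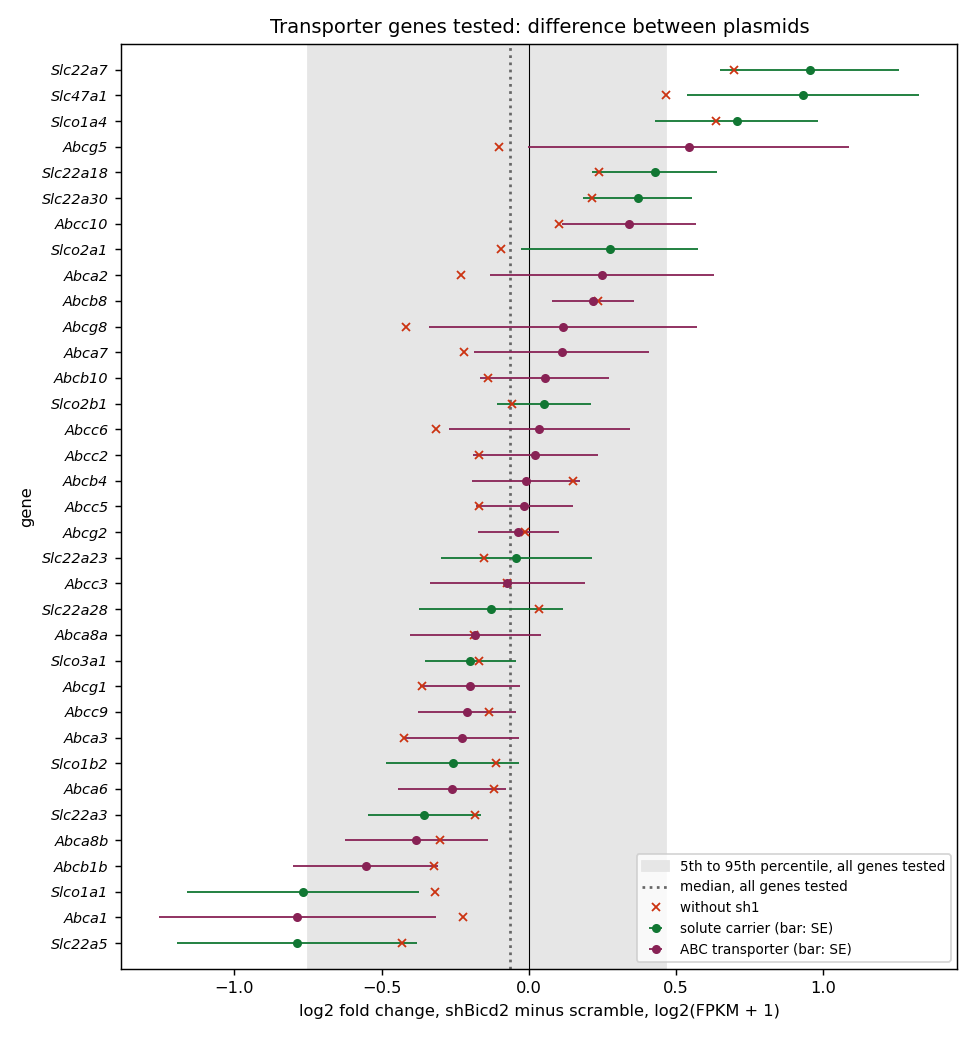
Log2 fold change (shBicd2 minus scramble, log2(FPKM + 1)) of 35 transporter genes in the fit, with bars for the SE; green for solute carriers and purple for ABC genes, and crosses for the value without sh1. The grey band spans the 5th to 95th percentile of all genes tested, -0.75 to 0.47, with Slc22a7, Slc47a1, Slco1a4 and Abcg5 above it at 0.95, 0.93, 0.70 and 0.54, and Slc22a5, Abca1 and Slco1a1 just below it at -0.79, -0.79 and -0.77.

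Many of the differences followed 1 library. Library sh1 had the highest value of the 6 for 28 of the 55 genes and the lowest for 16, so 44 had their extreme there at 1 end. Over all genes in the table sh1 was highest for 36.5% and lowest for 24.4%. Compared with the scramble mean, sh1 was above 2-fold for 19 members and below 0.5-fold for 8. Some of the 19 averaged below 1 FPKM and rested on few reads, such as Slco4c1 with 1 to 10 and Slc22a27 with 2 to 13. How many of all genes were past these fold limits in sh1 was not counted. The levels of Slc47a1 and Abcg5 in sh1 were 4.02 and 3.69 times the scramble mean, and those of Abcb1b and Abca1 0.141 and 0.252 times. Without sh1, 11 of the 37 fold changes turned sign, 3 in solute carriers and 8 in ABC genes. The ABC median was then -0.17 with 19 of 22 negative, and the solute carrier median -0.09, against -0.10 for all genes tested. Sign turns and negative fold changes without sh1 were not counted over all genes.

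**Figure D2:**
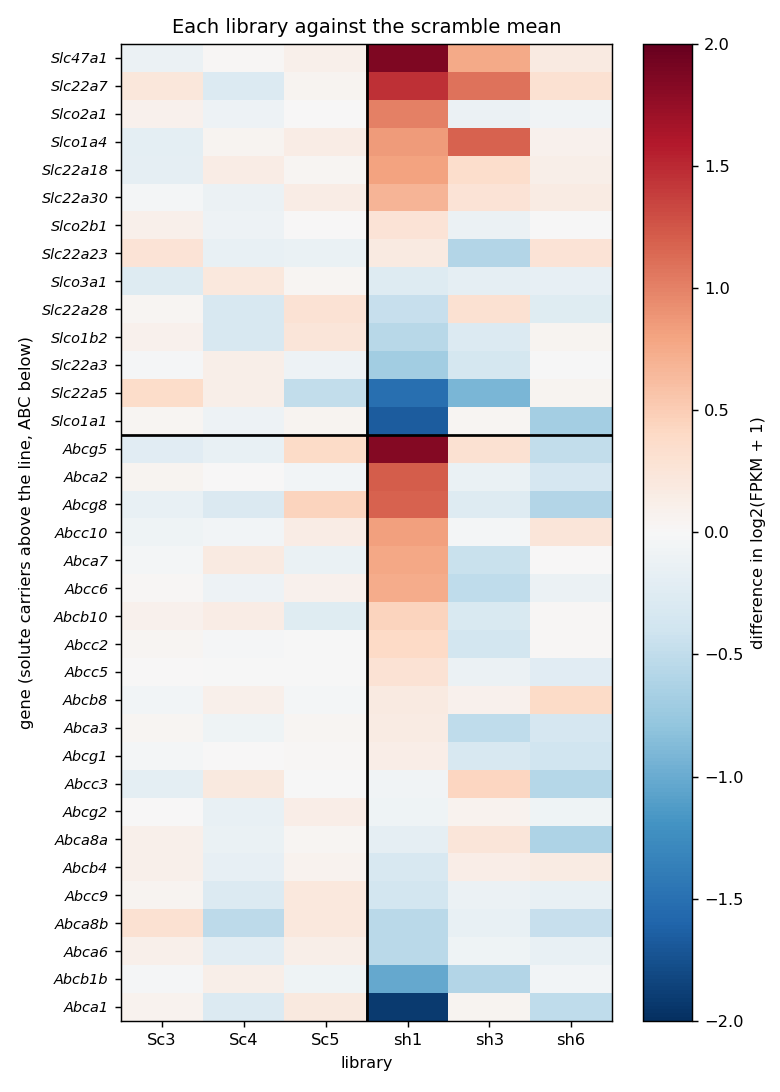
Difference of each library from the scramble mean in log2(FPKM + 1) for 35 genes in the fit, solute carriers above the horizontal line and ABC genes below it, sorted by sh1 within each. The sh1 column holds the strongest colours in both directions, from Slc47a1 and Abcg5 at the red end to Slco1a1 and Abca1 at the blue end.

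**Figure D3:**
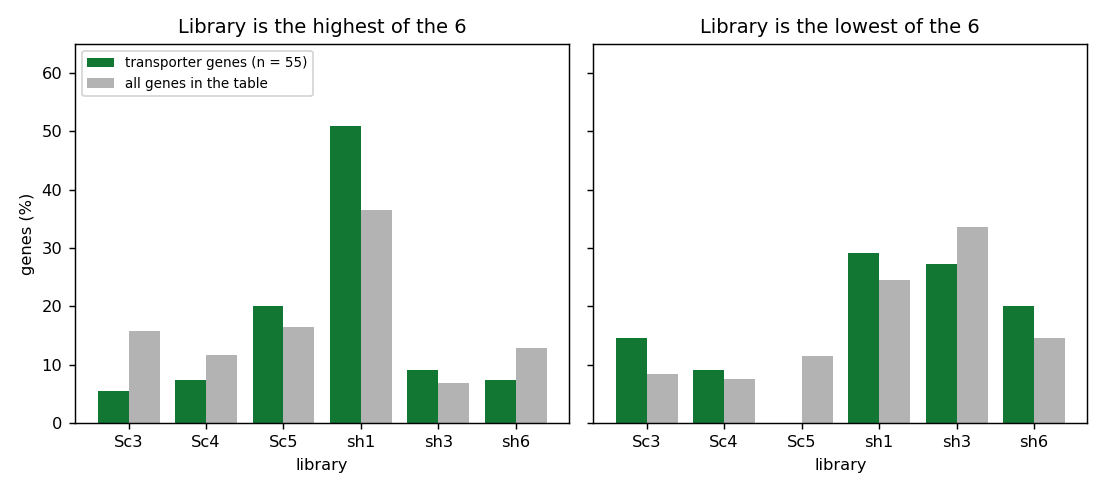
Percentage of genes for which each library was the highest (left) or the lowest (right) of the 6, for the 55 transporter genes in green and all genes in the table in grey. Library sh1 was highest for 50.9% of the members and 36.5% of all genes, and lowest for 29.1% and 24.4%.

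Groups did not overlap for 3 members that were higher in shBicd2 and 3 that were lower, which is 5.45% of the 55 in each direction, against 5.19% and 16.5% of all genes in the table. The higher ones were Slc22a7, Slc47a1 and Slc22a30. The lower ones, Abca5, Abcc1 and Slc22a21, were all under the filter. Among the 37 in the fit these counts were 3 and 0, and the share over the genes tested was not taken for them. The counts in the fit moved with the scaling. Median-of-ratios size factors gave 5 and 0, and quantile normalization gave 5 and 1. The TPM scale, on which every library has the same sum, gave 1 and 1. Under these scalings the share over all genes was not taken.

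Uptake carriers of organic anions come first. Slco1b2, the mouse counterpart of the human OATP1B carriers that clear bile salts, bilirubin and statins, was among the most abundant genes of the family. It was at 93.4, 69.9 and 104 FPKM for Sc3, Sc4 and Sc5, against 59.4, 72.7 and 91.0 FPKM for sh1, sh3 and sh6. The groups overlapped, with sh1 the lowest, and the log2 fold change was -0.26 ± 0.23 (SE, limma adjusted p = 0.610). It was -0.11 without sh1, -0.14 without Sc5, -0.42 without Sc4 and -0.41 without sh6, and -0.016 with array weights.

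Slco1a1, an uptake carrier that is higher in male than in female mouse liver, was at 50.1, 45.2 and 50.5 FPKM with scramble, against 14.7, 49.96 and 30.0 FPKM for sh1, sh3 and sh6. Library sh3 sat within the scramble range while sh1 and sh6 lay below it. The log2 fold change was -0.77 ± 0.39 (SE, adjusted p = 0.394), -0.32 without sh1 and -1.17 without sh3. With array weights, which weight each library by how well it follows its group, and which counted sh1 and sh3 at 0.180 and 0.284 and sh6 at 4.67, it was -0.68 with an adjusted p of 0.0146.

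Slco1a4, its neighbour and a known target of PXR, had a positive fold change at a far lower level. It was at 0.684, 1.01 and 1.15 FPKM with scramble, against 2.48, 3.38 and 1.06 FPKM for sh1, sh3 and sh6, from 78 to 360 reads. Libraries sh1 and sh3 lay above every scramble library, and sh6 lay inside their range. Its log2 fold change was 0.70 ± 0.28 (SE, adjusted p = 0.288). It was 0.63 without sh1, 0.47 without sh3, its highest library, 0.25 with array weights and 1.16 with a pseudocount of 0.01. The 2 genes share similar sequence, so the split of reads between them depends on how multi-mapping reads were treated, which is not given in the sources used here.

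Slco2b1, a carrier of sulfated steroids, varied little. It was at 16.0, 13.6 and 14.8 FPKM with scramble, against 18.0, 13.6 and 14.8 FPKM for sh1, sh3 and sh6, with overlapping groups (adjusted p = 0.90). Slco2a1, the prostaglandin transporter, was at 3.31 ± 0.279 FPKM in scramble (SD, n = 3), against 7.68, 2.98 and 3.10 FPKM for sh1, sh3 and sh6, so its log2 fold change of 0.27 became -0.09 without sh1. The summed level of 6 endothelial markers was 23.9 to 31.1 FPKM with scramble and lower, at 15.3 to 18.9 FPKM, with shBicd2 (2 of 5 tested fold changes positive and 3 negative, none past the threshold), and their part in the value of this endothelial transporter was not tested. Slco3a1 was at 2.11 ± 0.488 and 1.69 ± 0.0992 FPKM (SD, n = 3; adjusted p = 0.566). Slco4a1 and Slco4c1 were below 0.22 FPKM in every library, from 1 to 19 reads, and sh1 held the highest value of both.

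**Figure D4:**
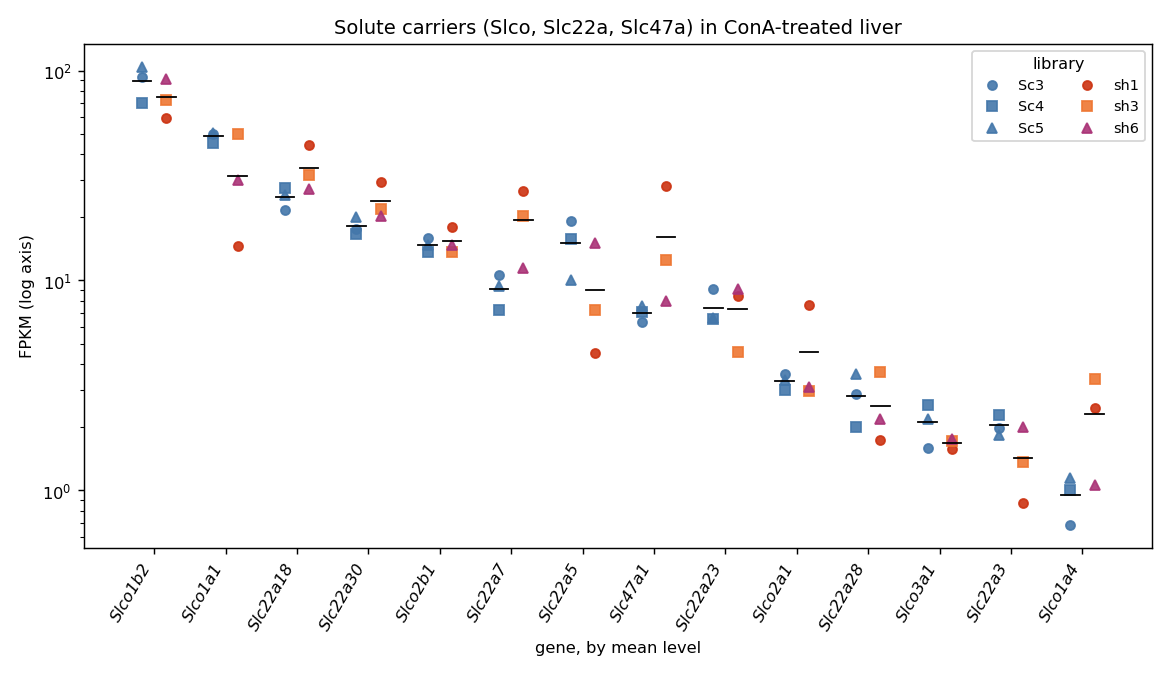
FPKM (log axis) of 14 solute carriers in the fit, ordered by mean level, with scramble libraries in blue on the left of each gene and shBicd2 libraries on the right; short lines are group means. For Slc22a7 and Slc47a1 the shBicd2 points lie above the scramble points, from 11.4 to 26.7 against 7.27 to 10.7 FPKM and from 8.00 to 28.1 against 6.36 to 7.54 FPKM.

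Slc22a7 (organic anion transporter 2; GRCm38 chromosome 17, 46432183 to 46438457, minus strand) had the smallest p of the members. It was at 10.7, 7.27 and 9.41 FPKM with scramble, against 26.7, 20.2 and 11.4 FPKM for sh1, sh3 and sh6, from 274 to 1025 reads. All 3 shBicd2 libraries lay above all 3 scramble libraries, sh6 by the least. The means were 9.12 ± 1.72 and 19.4 ± 7.66 FPKM (SD, n = 3), and the log2 fold change was 0.95 ± 0.30 (SE, adjusted p = 0.220). It was 0.70 without sh1, and over all alternatives it stayed positive, from 0.32 with array weights to 1.27.

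Slc22a30, another carrier of the organic anion branch, also had groups that did not overlap. It was at 17.6, 16.6 and 20.1 FPKM with scramble, against 29.6, 22.0 and 20.2 FPKM for sh1, sh3 and sh6, where sh6 was next to the top of the scramble range. Its log2 fold change was 0.37 ± 0.19 (SE, adjusted p = 0.387) and 0.21 without sh1. Slc22a28, its neighbour on chromosome 19, was at 2.82 ± 0.790 and 2.53 ± 1.0 FPKM (SD, n = 3). Slc22a27 in the same stretch was at 0.331 FPKM in sh1, from 13 reads, and at no more than 0.104 FPKM elsewhere. These 3 genes are related copies, so their separate levels are uncertain. Slc22a13b, not matched to a gene model of that symbol, was at 0.109 to 0.382 FPKM.

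Of 6 carriers of organic cations and carnitine, 3 entered the fit, all with negative fold changes and none past the threshold. Slc22a3, organic cation transporter 3, was at 1.99, 2.30 and 1.84 FPKM with scramble, against 0.873, 1.37 and 2.01 FPKM for sh1, sh3 and sh6. Library sh6 was inside the scramble range (log2 fold change -0.35 ± 0.19 SE, adjusted p = 0.413, and -0.18 without sh1).

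Slc22a5, the carnitine transporter OCTN2, was at 19.2, 15.8 and 10.1 FPKM with scramble, against 4.49, 7.25 and 15.2 FPKM for sh1, sh3 and sh6. Here sh1 and sh3 lay below the scramble range and sh6 inside it, and the scramble libraries themselves differed, with an SD of 4.59 FPKM against 5.53 FPKM in shBicd2. The log2 fold change was -0.79 ± 0.41 (SE, adjusted p = 0.397), -0.43 without sh1 and -0.18 with array weights. Its neighbours on chromosome 11 were low. Slc22a21 was at 0.524, 0.520 and 0.684 FPKM with scramble, against 0.225, 0.512 and 0.391 FPKM for shBicd2, from 15 to 40 reads, with groups just apart (exact two-sided permutation p = 0.1, the smallest that 3 against 3 can give). Slc22a4, the ergothioneine transporter, was at 1.12 FPKM in sh1 and at 0.264 to 0.559 FPKM in the other 5 libraries. Slc22a15 was at 0.511 to 0.957 FPKM and overlapped.

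Slc22a18, a carrier gene of an imprinted region, was at 21.7, 27.7 and 25.5 FPKM with scramble, against 44.2, 32.0 and 27.2 FPKM for sh1, sh3 and sh6. Only sh6 of the shBicd2 libraries lay inside the scramble range, and the log2 fold change was 0.43 ± 0.21 (SE, adjusted p = 0.386) and 0.24 without sh1. Slc22a23 was at 9.07, 6.52 and 6.60 FPKM, against 8.41, 4.56 and 9.07 FPKM in the same order, with a fold change near 0 whose sign turned under 2 of the scalings. Slc22a17 was at 0.0373 to 0.303 FPKM, from 3 to 25 reads, and highest in sh1.

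Slc47a1 encodes MATE1, which exports organic cations in exchange for protons at the canalicular membrane. It was at 6.36, 7.09 and 7.54 FPKM with scramble, against 28.1, 12.5 and 8.00 FPKM for sh1, sh3 and sh6, from 383 to 1737 reads. Every shBicd2 library was above every scramble library, and the spread within shBicd2 was 10.6 FPKM (SD, n = 3) against 0.594 in scramble. The log2 fold change was 0.93 ± 0.39 (SE, adjusted p = 0.316) and 0.46 without sh1.

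Among ABC genes, those of the ABCA subfamily move lipids. Abca1 (chromosome 4, 53030787 to 53159895, minus strand) loads cholesterol and phospholipid onto apolipoprotein A-I to form HDL, and was the ABC gene with the highest mean level. It was at 68.3, 53.5 and 74.0 FPKM with scramble, against 16.5, 67.5 and 45.2 FPKM for sh1, sh3 and sh6. Library sh3 was inside the scramble range, sh6 below it and sh1 at 0.252 times the scramble mean. The log2 fold change was -0.79 ± 0.47 (SE, adjusted p = 0.451), -0.22 without sh1 and -1.21 without sh3.

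Abca2, a transporter of late endosomes and lysosomes, was high in the library where Abca1 was low. It was at 2.20, 2.11 and 1.96 FPKM with scramble, against 6.12, 1.82 and 1.46 FPKM for sh1, sh3 and sh6. Its log2 fold change of 0.25 ± 0.38 (SE, adjusted p = 0.781) became -0.23 without sh1, where sh3 and sh6 both lay below the scramble values. Abca7 was also highest in sh1, with 3.19 FPKM there, 0.811 to 1.78 FPKM in the other 5 and sh6 inside the scramble range. Abca3, known for surfactant lipid in lung, was at 5.32, 4.78 and 5.32 FPKM with scramble, against 5.88, 3.31 and 3.84 FPKM for sh1, sh3 and sh6. The fold change on the log2 scale was -0.23 ± 0.19 (SE, adjusted p = 0.602), -0.43 without sh1 and -0.09 without sh3. With array weights it was -0.35 with an adjusted p of 0.0321, while it passed under none of the other scalings or omissions. Abca4, the retinal transporter, rested on 1 to 13 reads per library.

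A row of 5 ABCA genes lies on chromosome 11 on the minus strand (Abca8b, Abca8a, Abca9, Abca6 and Abca5). Abca6, the most abundant of them, was at 13.7, 10.8 and 13.8 FPKM with scramble, against 8.398, 11.9 and 11.3 FPKM for sh1, sh3 and sh6 (log2 fold change -0.26 ± 0.18 SE, adjusted p = 0.526). Abca8b was at 7.29, 3.70 and 6.81 FPKM, against 3.62, 5.08 and 3.90 FPKM in the same order (log2 fold change -0.38 ± 0.24 SE, adjusted p = 0.484). Both overlapped between groups. Abca8a was at 2.63 ± 0.302 and 2.29 ± 0.957 FPKM (SD, n = 3). Abca5 was under the filter, at 1.08, 0.814 and 1.29 FPKM with scramble, against 0.316, 0.516 and 0.550 FPKM for shBicd2, from 66 to 237 reads. Its groups were apart (exact two-sided permutation p = 0.1, the smallest possible). Abca9 was highest in sh1, at 0.401 FPKM, with 0.0901 to 0.105 FPKM in the other 5 libraries. Abca8a and Abca8b are close copies, and their split of reads is uncertain.

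The ABCB exporters of the plasma membrane did not differ past the threshold. Abcb1b, 1 of the 2 mouse P-glycoprotein genes, was at 1.40, 1.66 and 1.30 FPKM with scramble, against 0.206, 0.625 and 1.37 FPKM for sh1, sh3 and sh6, from 30 to 238 reads. Libraries sh1 and sh3 lay below the scramble range and sh6 inside it, and the log2 fold change was -0.55 ± 0.24 (SE, adjusted p = 0.336). It was -0.32 without sh1 and -0.10 with array weights, and -1.35 with a pseudocount of 0.01, since the pseudocount of 1 compresses low genes. Abcb1a, the other P-glycoprotein gene, did not share this pattern. It was at 0.369, 0.336 and 0.467 FPKM with scramble, against 0.330, 0.505 and 0.376 FPKM for shBicd2, from 33 to 46 reads. Abcb1a and Abcb1b are near copies, with reads that may be split between them. Abcb4, which moves phosphatidylcholine into bile, lies 27402 bases past Abcb1b. It was at 11.6, 9.44 and 11.3 FPKM with scramble, against 8.38, 11.8 and 12.2 FPKM for sh1, sh3 and sh6, with a log2 fold change of -0.01 ± 0.18 (SE, adjusted p = 0.986).

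The ABCB transporters of organelles overlapped between groups. Abcb8, of the mitochondrial inner membrane, was at 5.35, 6.07 and 5.41 FPKM with scramble, against 6.52, 6.02 and 7.58 FPKM for sh1, sh3 and sh6. The log2 fold change was 0.22 ± 0.14 (SE, adjusted p = 0.487), and 0.37 with an adjusted p of 0.0213 under array weights. Abcb10, also of the mitochondrial inner membrane, was at 4.59 ± 0.787 and 4.89 ± 1.53 FPKM (SD, n = 3). Abcb6 and Abcb9 were below 0.51 FPKM in every library and highest in sh1, at 0.505 and 0.479 FPKM from 49 reads each.

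**Figure D5:**
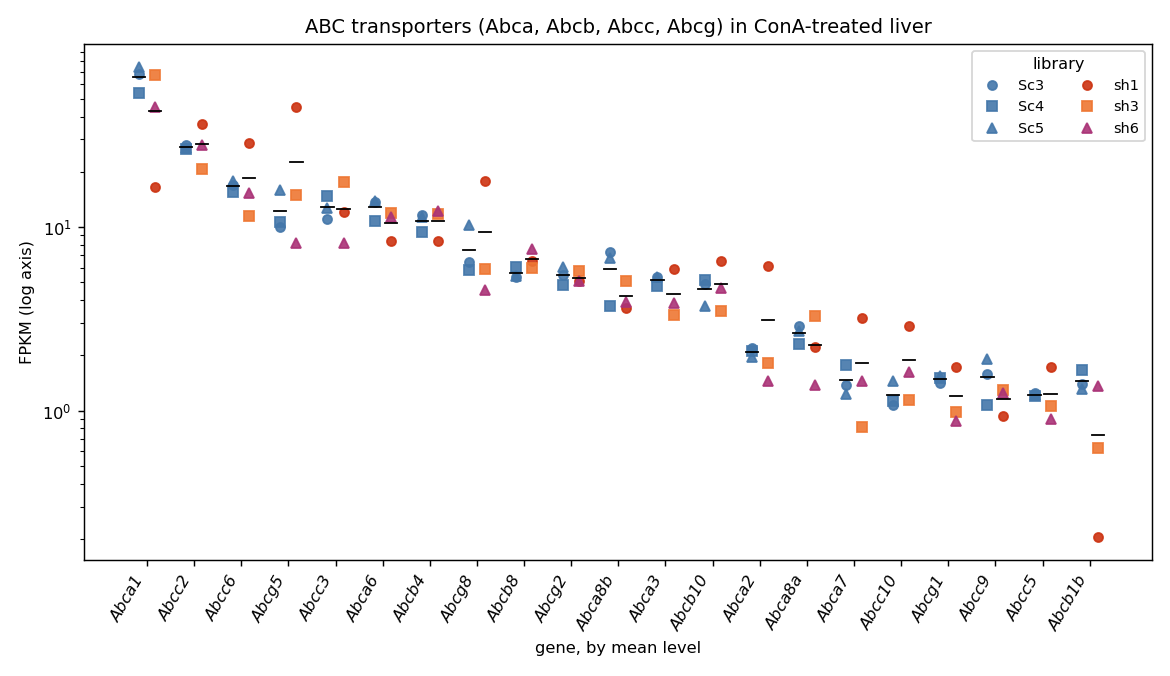
FPKM (log axis) of 21 ABC genes in the fit, ordered by mean level, with scramble libraries in blue on the left of each gene and shBicd2 libraries on the right; short lines are group means. Library sh1 is far above the rest for Abcg5 (45.0 FPKM) and Abca2 (6.12 FPKM) and far below for Abca1 (16.5 FPKM) and Abcb1b (0.206 FPKM).

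The ABCC subfamily exports conjugates. Abcc2, the canalicular pump for bilirubin glucuronides and other conjugates, was at 27.9, 26.7 and 27.0 FPKM in scramble, a narrow range,, against 36.3, 20.8 and 27.8 FPKM for sh1, sh3 and sh6. The shBicd2 libraries fell on both sides, and the log2 fold change was 0.02 ± 0.21 (SE, adjusted p = 0.974). Abcc6, which supports ATP release from hepatocytes and so the making of pyrophosphate, had the same order among the shBicd2 libraries only. It was at 17.02, 15.5 and 17.8 FPKM with scramble, against 28.6, 11.4 and 15.4 FPKM for sh1, sh3 and sh6 (log2 fold change 0.03 ± 0.31 SE, adjusted p = 0.968), and its value without sh1 was -0.32.

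Abcc3, the sinusoidal exporter that returns conjugates to blood, had another order. It was at 11.02, 14.8 and 12.7 FPKM with scramble, against 12.1, 17.5 and 8.21 FPKM for sh1, sh3 and sh6 (adjusted p = 0.915). Abcc4, a sinusoidal exporter of cyclic nucleotides and bile salts, was under the filter. It was at 0.413, 0.602 and 0.605 FPKM with scramble, against 0.488, 0.283 and 0.207 FPKM for sh1, sh3 and sh6, from 25 to 69 reads. Library sh1 was inside the scramble range and the other two below it (exact two-sided permutation p = 0.2).

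Abcc1, an exporter of glutathione conjugates, was also under the filter, and its groups were apart. It was at 0.756, 0.713 and 1.08 FPKM with scramble, against 0.374, 0.498 and 0.249 FPKM for sh1, sh3 and sh6, from 71 to 262 reads (exact two-sided permutation p = 0.1, the smallest possible). Abcc10 was at 1.07, 1.12 and 1.45 FPKM, against 2.89, 1.14 and 1.62 FPKM in the same order (log2 fold change 0.34 ± 0.23 SE, adjusted p = 0.508), and 0.10 without sh1. Abcc5 was at 1.22 ± 0.0187 and 1.23 ± 0.442 FPKM (SD, n = 3), and Abcc12 at 0.0181 to 0.0823 FPKM. Abcc9, a subunit of potassium channels and not an exporter, was at 1.52 ± 0.417 and 1.16 ± 0.197 FPKM. Abcc9 is known from smooth muscle and mural cells, and the summed level of 6 stellate cell markers was 33.4 to 44.2 FPKM with scramble and 14.1 to 32.6 FPKM with shBicd2 (4 of 4 tested fold changes negative, none past the threshold); their part in the value of Abcc9 was not tested.

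In the ABCG subfamily, Abcg5 and Abcg8 form the heterodimer that secretes cholesterol into bile, and both genes are LXR targets. Abcg5 was at 10.1, 10.7 and 15.8 FPKM with scramble, against 45.0, 14.9 and 8.16 FPKM for sh1, sh3 and sh6. Abcg8 was at 6.45, 5.80 and 10.3 FPKM with scramble, against 17.9, 5.94 and 4.55 FPKM for the same order. For both, Sc5 was the highest scramble library, sh1 the highest and sh6 the lowest of the 6. Their log2 fold changes were 0.54 ± 0.54 and 0.12 ± 0.46 (SE, adjusted p = 0.663 and 0.923), and without sh1 they were -0.10 and -0.42. Abca1, also an LXR target, had its lowest value in the library where this pair had its highest. The sterol transporter gene Abcg1 was highest in sh1, as this pair was, at 1.72 FPKM.

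Abcg2, the breast cancer resistance protein, varied little between libraries. It was at 5.49, 4.85 and 6.08 FPKM with scramble, against 5.10, 5.75 and 5.05 FPKM for sh1, sh3 and sh6, with 709 to 796 reads in each (log2 fold change -0.04 ± 0.14 SE, adjusted p = 0.921). Abcg1, a sterol transporter of macrophages and other cells, was at 1.41, 1.51 and 1.54 FPKM with scramble, against 1.72, 0.981 and 0.883 FPKM for sh1, sh3 and sh6. Libraries sh3 and sh6 lay below the scramble range and sh1 above it (log2 fold change -0.20 ± 0.17 SE, adjusted p = 0.60). With array weights it was -0.36 with an adjusted p of 0.0235. The summed level of 6 Kupffer cell and macrophage markers was 50.2 to 69.4 FPKM in scramble, against 56.0, 29.6 and 44.0 FPKM for sh1, sh3 and sh6, with 6 of 6 fold changes negative and none past the threshold; their part in the value of Abcg1 was not tested. Abcg3 was at 1.65 FPKM in sh1 and at 0.170 to 0.510 FPKM elsewhere.

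With array weights, 5 members passed an adjusted p of 0.05, against 0 with equal weights. Abcb8 was higher, against 8.37% of all genes tested, and Slco1a1, Abca3, Abca8a and Abcg1 were lower, against 18.3%. Leaving out sh3 brought 2.85% of all genes past the threshold and 0 of the 37 members. The count at an unadjusted p below 0.05 was not steady either. The 3 higher members became 0 without Sc4 and 1 without Sc3, Sc5 or sh1. The lower count went from 0 to 1 without Sc4, 2 without sh1 or sh3 and 3 without sh6. Shares over all genes were not taken for these unadjusted counts. Fold changes of Slc22a7, Slco1a4 and Slc47a1 kept a positive sign under every alternative run. These genes were picked by small p in the same 6 libraries, so the kept sign is a description only. The groups of Slc22a7 and Slc47a1 were apart, so leaving out a library could not turn their sign.

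Lists of genes around the transporters were counted the same way, beside the shares of 2.97% higher and 12.7% lower over all genes tested at an unadjusted p below 0.05. Among 22 nuclear receptors and other regulators in the fit, 0 passed, with 1 higher and 4 lower at an unadjusted p below 0.05 and a median log2 fold change of -0.08. Nfe2l2, which encodes the oxidative stress factor NRF2, was at 36.5, 39.9 and 45.3 FPKM with scramble, against 16.0, 26.4 and 18.1 FPKM for sh1, sh3 and sh6 (adjusted p = 0.168). Nr3c1, the glucocorticoid receptor gene, was at 14.1 ± 2.45 and 8.94 ± 1.58 FPKM (SD, n = 3; adjusted p = 0.217). The receptor genes Nr1i2 (PXR) and Hnf4a overlapped, at 25.1 ± 4.19 and 25.2 ± 2.41 FPKM and at 141 ± 21.7 and 135 ± 39.5 FPKM (SD, n = 3).

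Of 25 other hepatic solute carriers in the fit, 14 were positive with a median of 0.26, and 4 were higher and 1 lower at an unadjusted p below 0.05, against 2.97% and 12.7% of all genes tested, with 0 past the threshold. Slc27a2, a fatty acid transporter and acyl-CoA synthetase, was at 135, 153 and 122 FPKM with scramble, against 195, 224 and 198 FPKM for sh1, sh3 and sh6 (adjusted p = 0.195). Slc10a1, the sodium-dependent bile salt uptake carrier, was at 47.2, 45.9 and 49.0 FPKM with scramble, against 95.5, 94.8 and 58.9 FPKM for sh1, sh3 and sh6 (adjusted p = 0.199). In both genes all 3 shBicd2 libraries lay above scramble. Of 18 genes in the fit that anchor transporters at the canalicular membrane or seal it, 1 was higher and 4 lower at an unadjusted p below 0.05, against the same shares of all genes, and 0 passed. Ezr, the membrane linker ezrin, was at 8.36 ± 0.726 and 4.48 ± 0.872 FPKM (SD, n = 3; adjusted p = 0.166).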

How the data were processed

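The data are 6 RNA-seq libraries of whole liver. Per the submitters' processing notes, HISAT2 2.0.5 and featureCounts 1.5.0-p3 were used with mm10; annotation, strand setting and handling of multi-mapping reads were not given in the sources used here. FPKM values were deposited by the authors (fragments per kilobase scaled to the counted reads), 1 column per library, scaled by length and total but not otherwise between libraries, so a few abundant genes can shift the rest (the top 10 held 24.4% to 29.4%). Columns name the group but no labelled replicate, and there were 0 columns of other samples.

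Read numbers were recovered with GENCODE M21 (GRCm38) exon lengths: 98.7% of 14339 matched rows were within 0.02 reads, or 0.1% of the read number, of whole reads in all 6 libraries. Genes averaging 1 FPKM or more (10152) were tested as log2(FPKM + 1) with limma 3.58.1 (R 4.3.3, eBayes with trend). The test was two-sided, with Benjamini-Hochberg over all genes and a threshold of 0.05. The fit was also run on simulated data with larger changes than those of the members and a spread taken from the scramble libraries. That run does not show how the fit does at the spread of the shBicd2 libraries. The members, the lists and the rule for named genes were chosen with earlier results of these data known. The rule named 21 liver transporters, the 4 of smallest p per direction in each family and 2 per companion list; other members and genes were named after their values were seen. Some further genes of these families and lists are not reported here by name or drawn. Alternatives are in the closing section. Promoter windows are RefSeq's; figures used matplotlib 3.10.9.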

Additional observations from a re-analysis of the deposited data

How the results depend on the processing

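Across 17 alternatives, the 26 named genes in the fit gave 436 comparisons: 398 kept direction and side of the threshold, 35 turned sign and 3 passed it (array weights: Slco1a1, Abcg1, Abcb8). 16 genes never turned sign. Sign turns on the TPM scale were Slco2b1 (-0.0391), Abcc6 (-0.0602) and Abcc2 (-0.0731). With median-of-ratios size factors they were Abcb4 (0.0730), Abcc3 (0.0106), Abcg2 (0.0398) and Slc22a23 (0.0315), and with quantile normalization Slc22a23 (0.0686), Abcb4 (0.0844), Abcc3 (0.0064) and Abcg2 (0.0823). With array weights they were Slc22a23 (0.13), Abcb4 (0.11), Abcg8 (-0.44), Slco2b1 (-0.0344), Abcc6 (-0.12), Abcg5 (-0.29) and Abca2 (-0.28). The cause was not tested.

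The solute carrier median (-0.04) turned to 0.0163 with no filter on low values, 0.0045 at a mean FPKM of at least 5, 0.0315 with size factors and 0.0686 with quantile normalization. The ABC median (-0.03) turned to 0.0016 with no filter, 0.0347 with size factors and 0.0567 with quantile normalization, and was -0.18 with array weights. On the TPM scale the medians were -0.14 and -0.12, with -0.16 for all genes tested. Array weights gave 5 members past the threshold. For the counts that follow, the share over all genes was not taken at the same setting, so they describe the members only. At an unadjusted p below 0.05, higher members were 1 at a mean of at least 5 FPKM and 5 with size factors; lower members were 2 with no filter, 1 on the TPM scale, 7 with array weights and 1 with voom on recovered reads. Members with groups apart were 1 higher on the TPM scale, 5 with size factors and 5 with quantile normalization; lower ones were 3 with no filter, 1 on the TPM scale and 1 with quantile normalization.

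Leaving out 1 library at a time, the medians ran from -0.10 to 0.13 for solute carriers and from -0.17 to 0.0243 for ABC genes, and 0 members passed in each. Counts at an unadjusted p below 0.05 ran from 0 to 4 higher and 0 to 3 lower. Groups apart ran from 3 to 5 higher and 1 to 8 lower. With all 6 libraries they were 3 and 0, and leaving out a library can only keep or raise the number apart. For none of these counts was the share over all genes taken. Among named genes whose sign turned, ranges were -0.0564 to 0.13 for Slco2b1, -0.20 to 0.23 for Slc22a23, -0.10 to 0.15 for Abcb4, -0.17 to 0.22 for Abcc2, -0.32 to 0.18 for Abcc3, -0.32 to 0.31 for Abcc6, -0.11 to 0.0311 for Abcg2, -0.10 to 1.06 for Abcg5, -0.42 to 0.46 for Abcg8 and -0.23 to 0.54 for Abca2. No paired analysis was possible because the columns carry no replicate numbers. Of the 18 members outside the fit, Abcc1, Abca5 and Slc22a15 had at least 66 reads in every library; several others, such as Slco4c1 with 1 to 10, rested on few reads.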
